A study of Mus musculus with 27 samples.

Results

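ETO2 (encoded by *Cbfa2t3*) and IRF2BP2 are corepressors that were mapped by ChIP-Seq in mouse erythroleukaemia (MEL) cells, and 2730 of the 13229 binding sites in the deposited list were classed by the authors as bound by both. These shared sites are the subject here. The other sites were classed as ETO2-only (1760) or IRF2BP2-only (8739). MEL cells are an established line of transformed erythroid progenitors that can be induced to differentiate, and all samples came from this line. The ChIP samples used here were 1 library made with a custom antibody against IRF2BP2 and 1 with normal rat IgG. The ETO2 library was not among the samples analysed here but came from an earlier study by the same group. The effect of losing each factor was read from RNA-Seq counts. *Cbfa2t3* was depleted with the shRNAs sh2 and sh3 (2 KD libraries each, labelled Eto2 KD-sh2 and Eto2 KD-sh3) beside 2 control libraries (Eto2 WT), and *Irf2bp2* with sh1 (2 KD libraries, Irf2bp2 KD-sh1) beside 2 controls (Irf2bp2 WT). *Gfi1b* was targeted by siRNA in 2 libraries labelled KD beside 2 controls, and *Kdm1a*, which encodes the histone demethylase LSD1, by shRNA in 2 libraries beside 1 control (Lsd1 WT). In addition, 2 libraries of induced MEL cells were set beside 2 of non-induced cells. The controls labelled WT received a non-targeting construct according to the study's methods, and the same methods call the RNA-Seq replicates independent biological samples. The labels do not say which cultures they came from, and p-values measure the spread between these libraries.

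In erythroid progenitors the transcription factors GATA1 and TAL1, held together by LMO2 and LDB1, bind DNA at a composite motif in which an E-box and a GATA motif lie a fixed distance apart. The LDB1 complex activates the genes of the mature red cell during differentiation. ETO2 is recruited to the same complex and represses these genes before differentiation starts, and IRF2BP2 is a corepressor of the interferon regulatory factor 2 binding protein family without a well-known sequence preference of its own.

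Membership of the shared class was fixed by the ChIP signal alone. Per the study's methods a site had to be called by 2 or more of 3 peak callers and pass limits on fold enrichment over IgG, adjusted p-value, reads and length, and the sites were divided into 3 classes from the calls and from clustering of the coverage of both factors. The shared sites were thus selected on enrichment and coverage. The fold enrichment and adjusted p-value of a shared site therefore describe how it was chosen, are not tested here, and are listed once per site without the antibody they belong to. Over the 2730 shared sites the fold enrichment ran from 2.3 to 172 with a median of 10.2 (quartiles 6.75 and 16). The highest adjusted p-value among them was 0.00994, and the lowest fold enrichment among the ETO2-only sites, outside the class, was 2.04. Each factor was mapped in 1 library, so that no replicate check of a single site is possible.

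The sequences under a few of these sites are given first, since the motifs in them carry much of what the sites have in common. All were read from the mouse genome (mm9) around the centre of the listed site, 5′ to 3′ on the strand named. Capitals mark GATA motifs (AGATAA or AGATAG or TGATAA or TGATAG, which read as TTATCT or CTATCT or TTATCA or CTATCA where they lie on the opposite strand), the CTG of a composite motif with the GATA motif it belongs to, and the palindromic E-box CAGCTG. The first set holds sites at genes of haem synthesis and of the red cell membrane that the study names as bound by both factors. *Alas2* encodes the erythroid enzyme that starts haem synthesis, *Epb4.2* the membrane protein band 4.2, *Slc22a4* an organic cation transporter and *Slc4a1* the anion exchanger band 3.
Alas2 intron, 2476 bp downstream of the transcription start site (TSS), chrX:146984294-146984494, minus strand: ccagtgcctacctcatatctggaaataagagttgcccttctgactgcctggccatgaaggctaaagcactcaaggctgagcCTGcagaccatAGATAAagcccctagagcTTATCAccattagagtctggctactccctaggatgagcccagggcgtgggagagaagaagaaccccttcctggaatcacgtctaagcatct
Alas2 intron, 17474 bp downstream of the TSS, chrX:146999292-146999492, minus strand: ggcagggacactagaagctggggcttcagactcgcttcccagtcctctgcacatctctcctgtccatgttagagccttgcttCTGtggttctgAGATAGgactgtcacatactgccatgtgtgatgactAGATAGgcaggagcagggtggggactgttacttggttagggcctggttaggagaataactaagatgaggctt
Epb4.2 TSS, cut at the annotated 5′ end, chr2:120862809-120862907, plus strand: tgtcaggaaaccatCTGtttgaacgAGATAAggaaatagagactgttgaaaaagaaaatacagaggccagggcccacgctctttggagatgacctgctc
Slc22a4 intron, 1405 bp downstream of the TSS, chr11:53840087-53840287, plus strand: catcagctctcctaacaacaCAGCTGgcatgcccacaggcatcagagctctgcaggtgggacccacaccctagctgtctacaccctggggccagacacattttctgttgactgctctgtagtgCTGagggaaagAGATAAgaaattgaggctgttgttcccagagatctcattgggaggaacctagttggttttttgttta
Slc4a1 intron, 2447 bp downstream of the TSS, chr11:102224970-102225170, plus strand: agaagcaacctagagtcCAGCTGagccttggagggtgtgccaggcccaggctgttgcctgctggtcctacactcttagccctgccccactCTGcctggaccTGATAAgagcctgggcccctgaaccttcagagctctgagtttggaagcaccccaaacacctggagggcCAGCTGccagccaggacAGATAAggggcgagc
Slc4a1 upstream, 9155 bp from the TSS, chr11:102236572-102236772, plus strand: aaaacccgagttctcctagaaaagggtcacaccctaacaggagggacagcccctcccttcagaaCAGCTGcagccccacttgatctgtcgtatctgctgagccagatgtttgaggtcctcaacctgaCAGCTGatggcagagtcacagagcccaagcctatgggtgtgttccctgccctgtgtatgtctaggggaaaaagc

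The first 5 of these sequences each held 1 composite motif, and in all 5 the CTG and the GATA motif were 8 bases apart. The sixth, upstream of *Slc4a1*, held 2 CAGCTG E-boxes and no GATA motif. The fold enrichments of the 6 sites were 16.9 and 13.2 at *Alas2*, 4.45 at *Epb4.2*, 11.5 at *Slc22a4*, and 14 and 14.3 at *Slc4a1*.

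The second set comes from the globin loci. No listed α-globin gene was the nearest gene of a shared site, but 4 shared sites whose nearest TSS was that of the neighbouring gene *Mpg* or *Nprl3* lay 14.4 to 37.7 kb upstream of *Hba-a1*. The site farthest from *Hba-a1* was assigned to *Mpg* by its nearest TSS but lay in an intron of *Nprl3*. The introns of *Nprl3* are known to hold distant enhancers of the locus. The strongest and the nearest of these 4 sites are shown, with a shared site upstream of the β-globin genes whose nearest annotated gene was the olfactory receptor gene *Olfr66*.
Nprl3 intron, assigned to Mpg, 37.7 kb upstream of Hba-a1, chr11:32145713-32145913, minus strand: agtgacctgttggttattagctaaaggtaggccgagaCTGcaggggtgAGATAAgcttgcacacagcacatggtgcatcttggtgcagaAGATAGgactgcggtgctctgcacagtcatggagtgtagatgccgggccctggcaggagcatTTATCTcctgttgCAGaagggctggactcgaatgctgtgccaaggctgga
Nprl3 upstream region, 14.4 kb upstream of Hba-a1, chr11:32169054-32169254, minus strand: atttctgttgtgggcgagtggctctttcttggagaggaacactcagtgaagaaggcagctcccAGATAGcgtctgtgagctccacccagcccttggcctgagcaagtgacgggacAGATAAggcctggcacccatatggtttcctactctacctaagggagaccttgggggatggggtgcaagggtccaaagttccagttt
Olfr66 region, 42.8 kb upstream of Hbb-b1, chr7:111019278-111019478, plus strand: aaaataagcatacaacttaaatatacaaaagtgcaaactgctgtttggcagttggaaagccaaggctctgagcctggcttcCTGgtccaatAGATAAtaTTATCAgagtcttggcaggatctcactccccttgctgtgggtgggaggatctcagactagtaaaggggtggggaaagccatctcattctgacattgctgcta

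The site assigned to *Mpg* had a fold enrichment of 34.2 and held 2 composite motifs, with spacings of 7 and 8 bases, on opposite strands. The site upstream of *Nprl3*, at a fold enrichment of 17.3, held 2 GATA motifs and no composite. In the *Olfr66* site (6.43) the composite had a spacing of 7 bases and the sequence held 2 GATA motifs in all.

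The third set shows one site at each of 5 genes with the largest changes in both KDs. *Aqp8* encodes a water channel, *Artn* a neurotrophic ligand and *Vim* the intermediate filament protein vimentin. *Pik3r6* encodes a regulatory subunit of phosphoinositide 3-kinase gamma.
Aqp8 promoter, 37 bp upstream of the TSS, chr7:130605671-130605807, plus strand: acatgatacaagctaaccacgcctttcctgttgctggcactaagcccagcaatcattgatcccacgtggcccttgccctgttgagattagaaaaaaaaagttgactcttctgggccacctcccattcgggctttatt
Ypel4 exon, 1538 bp downstream of the TSS, chr2:84575653-84575853, minus strand: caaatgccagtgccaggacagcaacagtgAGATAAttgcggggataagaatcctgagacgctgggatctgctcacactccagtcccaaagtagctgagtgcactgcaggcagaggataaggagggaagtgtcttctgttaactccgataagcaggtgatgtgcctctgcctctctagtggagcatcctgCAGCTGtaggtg
Artn intron, 971 bp downstream of the TSS, chr4:117601297-117601497, minus strand: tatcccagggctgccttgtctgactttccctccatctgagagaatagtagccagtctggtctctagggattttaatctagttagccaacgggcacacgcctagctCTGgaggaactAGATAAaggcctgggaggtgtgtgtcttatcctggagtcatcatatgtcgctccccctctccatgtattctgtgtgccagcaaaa
Vim promoter, 262 bp upstream of the TSS, chr2:13495192-13495392, plus strand: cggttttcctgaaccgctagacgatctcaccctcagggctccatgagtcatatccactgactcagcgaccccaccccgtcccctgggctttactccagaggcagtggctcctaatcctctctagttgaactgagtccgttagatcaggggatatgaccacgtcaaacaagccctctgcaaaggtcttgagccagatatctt
Pik3r6 upstream, 1888 bp from the TSS, chr11:68314533-68314733, plus strand: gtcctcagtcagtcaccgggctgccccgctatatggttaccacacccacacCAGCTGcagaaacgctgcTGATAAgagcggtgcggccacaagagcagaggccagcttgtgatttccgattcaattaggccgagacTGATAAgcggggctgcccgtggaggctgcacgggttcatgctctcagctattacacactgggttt

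The *Artn* sequence held 1 composite motif with a spacing of 8 bases, and the *Ypel4* sequence 1 GATA motif and 1 CAGCTG without a composite. Neither the *Aqp8* nor the *Vim* sequence held a GATA motif. The *Vim* sequence held 2 AP-1 motifs (TGANTCA, here in lower case), and the *Pik3r6* sequence 2 GATA motifs and 1 CAGCTG.

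The common element of the shared sites was the GATA motif. Within 100 bp of the centre, 2469 of 2730 shared sites (90.4%, 95% Wilson interval 89.3 to 91.5) held at least 1 GATA motif, against 29.2% of equally long windows placed 2 kb away on both sides. One copy was found at 1068 sites, 2 copies at 1018, 3 at 321 and 4 or more at 62. The form AGATAA was present at 58.4% of shared sites and 9.93% of flanking windows, TGATAA at 37.3%, AGATAG at 22.5% and TGATAG at 13.9%. The nearest GATA motif lay a median of 21.5 bp from the centre (quartiles 10.5 and 40.5 bp) at the 2564 sites with one within 200 bp.

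The composite motif, searched as CTG, 6 to 8 bases of any sequence and a GATA motif on the same strand, was present at 894 shared sites (32.7%, 31 to 34.5) and at 1.98% of flanking windows. Its spacing was narrow. A spacing of 8 bases was found at 516 sites (18.9%), 7 bases at 314 (11.5%) and 9 bases, outside the motif as searched, at 246 (9.01%), while every other spacing from 0 to 20 bases occurred at 4.03 to 5.86% of sites. With the CTG turned around, no spacing was above 6.48%, and with the CTG on the other side of the GATA motif none was above 5.31%. The flanking windows stayed between 0.513 and 1.03% at every spacing of the first arrangement.

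**Figure D1:**
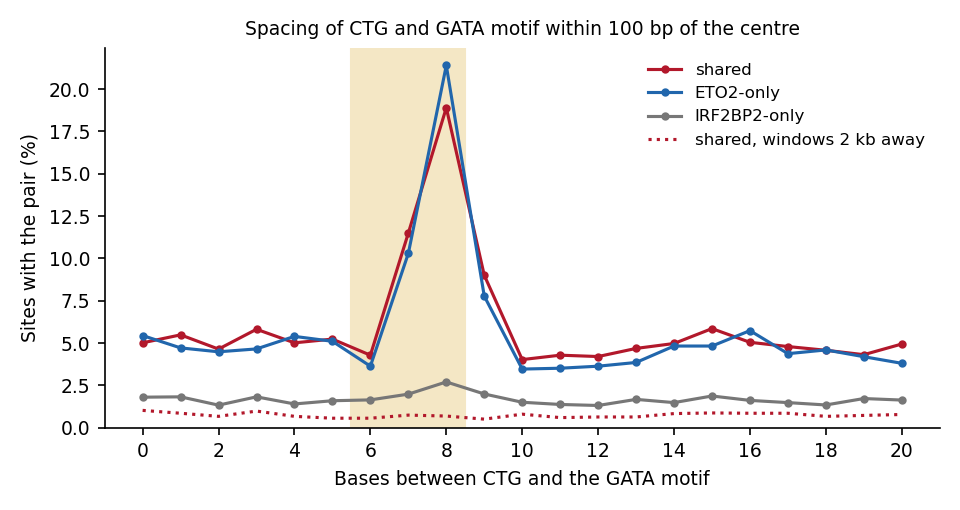
Share of sites (%) with CTG and a GATA motif on the same strand at each spacing of 0 to 20 bases, within 100 bp of the site centre, for shared, ETO2-only and IRF2BP2-only sites, with flanking windows of the shared sites as the dotted line and the searched spacings shaded. Shared sites peak at 8 bases (18.9%) over a plateau of about 4.03 to 5.86%.

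Shared and ETO2-only sites did not differ past the threshold in their GATA and composite content. The composite was found at 32.7% of shared and 33.9% of ETO2-only sites, a difference of -1.17 percentage points with a 95% Newcombe interval of -4.01 to 1.64 (2-sided Fisher's exact test, Benjamini-Hochberg adjusted p = 0.497 over 50 tests of 25 features). For any GATA motif the difference was 1.75 points (-0.069 to 3.63, adjusted p = 0.1) and for 2 or more GATA motifs 0.239 points (-2.75 to 3.23, adjusted p = 0.896). These intervals bound the difference and do not show that the classes are the same. The difference of GATA content was past the threshold when only the most enriched site of each gene was kept (2.59 points, adjusted p = 0.0216).

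Shared sites differed from ETO2-only sites in other motifs within 100 bp of the site centre. The palindromic E-box CAGCTG was found at 732 shared sites (26.8%) and 260 ETO2-only sites (14.8%), a difference of 12 points (9.66 to 14.4, adjusted p = 2.13e-21) against 11.2 and 9.38% of their flanking windows. It lay between both other classes at shared sites, since 31% of IRF2BP2-only sites held it (-4.23 points, -6.13 to -2.28, adjusted p = 6.05e-05), a difference that was -1.31 points (adjusted p = 0.318) in windows of 200 bp. The AP-1 motif TGANTCA was found at 9.89% of shared and 5.68% of ETO2-only sites (adjusted p = 1.04e-06), and its extended form GCTGANTCA, which binds the erythroid factor NF-E2, at 2.56 and 0.909% (adjusted p = 0.000118). The 2 AP-1 searches overlap, since the second contains the first. At ETO2-only sites the shares of both were close to those of their flanking windows (5.57 and 0.852%).

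A further 5 features were more frequent at shared than at ETO2-only sites by smaller margins. They were the STAT motif TTCNNNGAA (9.96 against 6.53%, adjusted p = 0.000128), the RUNX motif TGTGGNT (30.6 against 25.9%, adjusted p = 0.00141), a TSS within 1 kb (5.6 against 3.75%, adjusted p = 0.00905), the KLF motif CCNCNCCC (30.6 against 26.8%, adjusted p = 0.0111) and the E-box CACGTG (3.81 against 2.39%, adjusted p = 0.0176). In flanking windows of shared sites these motifs were found at 5.73% (STAT), 17.6% (RUNX), 18.5% (KLF) and 2.93% (CACGTG). Among sites at or above the median fold enrichment the differences of STAT (2.58 points, adjusted p = 0.0568), RUNX (3.09 points, adjusted p = 0.198), KLF (2.66 points, adjusted p = 0.278) and CACGTG (0.863 points, adjusted p = 0.372) did not pass the threshold. In windows of 50 bp KLF (2.01 points, adjusted p = 0.127) and CACGTG (0.521 points, adjusted p = 0.295) did not pass either, and with the TSS of every transcript counted the promoter difference was 1.78 points (adjusted p = 0.0937). The motif GAAANNGAA of interferon regulatory factors was found at 4.84% of shared sites, against 6.81% of flanking windows, and differed from ETO2-only sites by 0.631 points (-0.649 to 1.84, adjusted p = 0.444).

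Shared sites differed most from IRF2BP2-only sites in GATA content and in closeness to promoters. GATA motifs were 46 points more frequent at shared sites (44.4 to 47.4), 2 or more GATA motifs 38.7 points (36.7 to 40.7) and the composite 26.5 points (24.6 to 28.3, adjusted p = 6.68e-245). Promoter features went the other way: a TSS within 1 kb was found at 5.6% of shared and 26.5% of IRF2BP2-only sites (-20.9 points, -22.2 to -19.6, adjusted p = 9.59e-145), and the GC-rich SP motif CCCGCCC at 3.52 and 10.3% (-6.81 points, adjusted p = 3.77e-32). AP-1 (-6.69 points, adjusted p = 3.33e-18) was also less frequent at shared sites. Of the 25 features, 19 passed the threshold against IRF2BP2-only sites and 8 against ETO2-only sites.

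**Figure D2:**
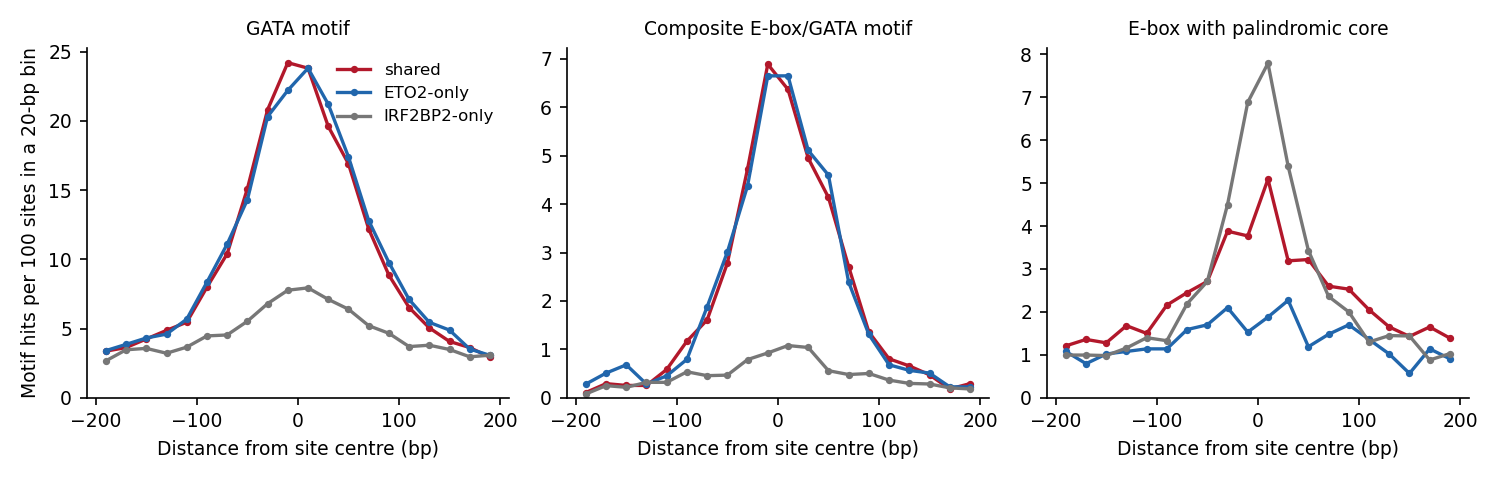
Motif hits per 100 sites in 20-bp bins, by distance from the site centre (bp), for the GATA motif, the composite motif and the palindromic E-box CAGCTG, for the 3 classes of site. GATA and composite hits peak at the centre of shared and ETO2-only sites alike (24.2 GATA hits per 100 shared sites in the bin just before the centre), whereas in the bin just after it CAGCTG was found 5.09 times per 100 shared, 1.88 per 100 ETO2-only and 7.79 per 100 IRF2BP2-only sites, each palindrome counted once.

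A GATA motif was missing from 261 shared sites. Of these, 39.5% held a RUNX motif, 32.2% CAGCTG and 14.6% AP-1, against 30.9, 24.6 and 10.5% of the 1575 shared sites with a GATA motif but no composite. The median fold enrichment was 8.83 without a GATA motif, 9.91 with a GATA motif only and 11 with the composite, and a TSS lay within 5 kb of 24.5, 18.7 and 19.6% of these groups. These groups were compared as a description, with no test.

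Shared sites were mostly distal. Their centres lay in introns at 1357 sites (49.7%), between genes at 1256 (46%) and in exons at 117 (4.29%). Only 153 (5.6%) were within 1 kb of a TSS, a further 381 (14%) within 5 kb, 1168 (42.8%) at 10 to 50 kb and 308 (11.3%) beyond 100 kb, with a median of 20609 bp. The nearest other shared site was a median of 67424 bp away. Another shared site lay within 10 kb of 586 (21.5%), while 46% of IRF2BP2-only and 11% of ETO2-only sites had one of their own class that near. The classes differ in size, and no test was made. Of the shared sites, 1140 (41.8%) had an IRF2BP2-only site within 10 kb and 284 (10.4%) an ETO2-only site, while 1173 had no other listed site that near. Joining neighbours up to 12.5 kb apart gave 2372 runs, of which 53 held 3 or more sites. The largest held 5 sites and there were 2 of them, at *Cbfa2t3* itself (22310 bp) and at *Dapp1* and *Lamtor3* (28918 bp). A run of 4 covered 8028 bp at *Gata1*, and another of 4 covered 9651 bp upstream of *Pim1*, which encodes a survival kinase. Some listed sites abut end to end, for example at *Cbfa2t3* and *Abcg1*, and were counted separately here and below.

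Each site was assigned to the single protein-coding gene with the nearest TSS within 1 Mb, and 2728 of the shared sites could be assigned (2 could not) to 2047 of 22238 annotated genes (9.2%). Of these, 1569 had 1 shared site, 348 had 2, 87 had 3 and 43 had 4 or more. The gene with the most was *Runx1*, a haematopoietic transcription factor, with 10 shared sites from 3796 to 371439 bp from its TSS and fold enrichments of 5.83 to 26, followed by *Cbfa2t3* with 7 (136 to 32607 bp, 5.67 to 19.8), and *Gse1*, *Max* and *Pde4d* with 6 each. An IRF2BP2-only site was assigned as well to 1278 of the genes (62.4%), an ETO2-only site to 458, and 636 (31.1%) had shared sites alone. Between 1798 (*Gfi1b* KD) and 1871 (*Cbfa2t3* KD) of the genes were found in the count tables, and between 1529 and 1618 passed the filter on low counts and were tested. Genes that passed were somewhat more highly expressed than genes at large: their median control level was 14.2 RPKM in the *Cbfa2t3* KD table against 10.8 for all genes tested, and 15.3 against 11.8 RPKM in the *Irf2bp2* KD table. The part of this difference in the counts below was not tested.

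Fewer cells of a kind and less RNA per cell cannot be told apart in these bulk libraries. The libraries held 44.5 to 57.7 M counted reads in the shRNA experiments and 9.93 to 19.6 M in the *Gfi1b* and MEL differentiation experiments. *Cbfa2t3* fell in its KD (400.2 and 427.1 CPM in the controls, 202.0 and 243.5 with sh2, 123.1 and 145.3 with sh3), although this call was lost without control library 1 (log2 -1.26) or 2 (log2 -1.17). *Irf2bp2* RNA went from 115.9 and 119.6 to 92.2 and 94.9 CPM (log2 -0.33, adjusted p = 0.00266), below the fold limit for a call, and *Kdm1a* from 151.6 to 16.9 and 16.3 CPM. *Gfi1b* went against its label in 1 library: the library labelled Gfi1b KD 1 held 215.6 CPM, the library labelled Gfi1b KD 2 76.4, and the controls 122.2 and 144.9. The control library Irf2bp2 WT 2 detected 17560 genes, against 15065 to 15234 in the other libraries of that table. Of 7 erythroid markers, 6 were at 1 RPKM or more in every library, and macrophage, granulocyte, T cell and B cell markers summed to at most 3.45 RPKM in any library.

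More of the genes with a shared site changed in *Cbfa2t3* KD than of genes at large. A gene was called with edgeR's quasi-likelihood test when its Benjamini-Hochberg adjusted p over all genes tested was at most 0.05 and its log2 fold change at least 0.5 in size. By this rule 249 of 1618 genes with a shared site were called (15.4%), against 5.74% of all 12537 genes tested. Of these, 171 were raised (10.6% of the genes with a shared site, background 2.99%) and 78 lowered (4.82%, background 2.75%). The share rose with the number of sites, from 13.3% of genes with 1 shared site to 19.8% with 2 and 26.5% with 3 or more, and with closeness, from 6.93% of genes whose nearest shared site was over 50 kb from the TSS to 13.6% at 5 to 50 kb and 24.4% within 5 kb. Within 5 kb, 84 of 438 genes were raised (19.2%) and 23 lowered. Genes with an ETO2-only but no shared site were called at 11.5%, genes with IRF2BP2-only sites alone at 5.11% and genes with no site at 3.22%. Genes with a composite motif in a shared site were called at 18.7% (92 raised, 29 lowered of 648), and genes whose shared sites lacked it at 13.2% (79 raised, 49 lowered of 970). A gene with more shared sites had more chances to hold a composite, and the number of sites was not matched. The count rested on the controls: without control library 1 it was 107 of 1630 (all genes tested 2.19%), and without control library 2 it was 140 of 1634 (2.82%). At an unadjusted p under 0.05, 741 genes with a shared site were past the threshold, where the share of all genes was 26.2%. The summed level of 5 megakaryocyte markers, of which 4 were at 1 RPKM or more in every library and *Pf4* made up most, was 498.2 to 528.0 RPKM in the controls and 605.7 to 717.7 in the KD, and its part in these counts was not tested.

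In *Irf2bp2* KD 552 of 1601 genes with a shared site were called (34.5%), against 22.5% of all 12329 genes tested. The excess was on the raised side, with 321 raised (20.0%, background 10.1%) and 231 lowered (14.4%, background 12.5%). Within 5 kb of a shared site 147 of 434 genes were raised (33.9%) and 56 lowered, whereas beyond 50 kb 30 of 271 were raised (11.1%) and 52 lowered (19.2%). Genes with ETO2-only but no shared sites were called at 28.7%, and genes with IRF2BP2-only sites alone at 22.0%, near the background. Without the control library that detected more genes the count was 579 of 1618, with 24.0% of all genes called. At an unadjusted p under 0.05 it was 1043, where the share of all genes was 53.7%. The summed megakaryocyte markers were at 484.2 and 576.2 RPKM in the controls and 994.2 and 1036 in the KD, and their part in these counts was not tested.

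**Figure D3:**
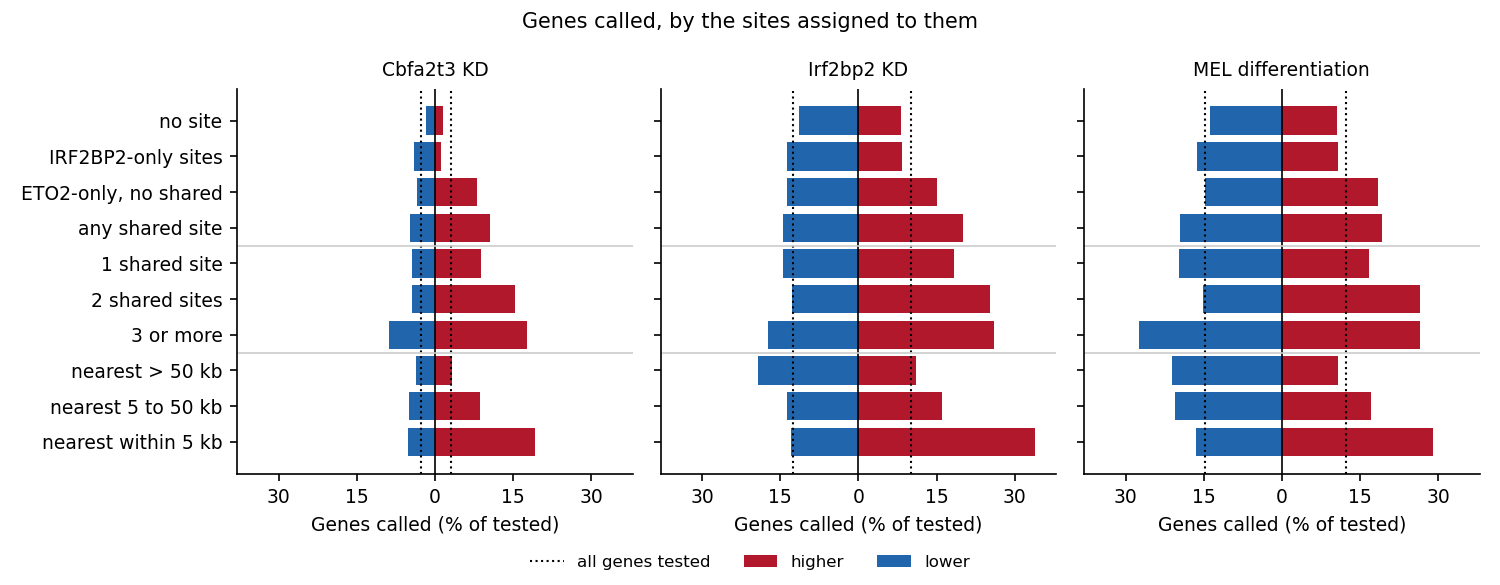
Share of the tested genes called higher (right) and lower (left), in %, by the class, number and distance of the sites assigned to them, in *Cbfa2t3* KD, *Irf2bp2* KD and MEL differentiation, with dotted lines at the shares of all genes tested. In *Cbfa2t3* KD the raised share reaches 19.2% for genes with a shared site within 5 kb, against 2.99% of all genes, and beyond 50 kb it is 3.28%.

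The *Cbfa2t3* and *Irf2bp2* KDs have separate controls, so that their results could be set beside each other. Of 1592 genes with a shared site tested in both, 122 were raised in both KDs (7.66%), against 2% of all 12225 genes tested in both. They were 71.8% of the genes with a shared site raised in *Cbfa2t3* KD and 38.1% of those raised in *Irf2bp2* KD, where the same shares over all genes tested in both were 67.0 and 19.8%. Another 45 were lowered in both (background 1.65%), and 4 moved in opposite directions. Among the 122 raised genes, the nearest shared site lay within 5 kb of the TSS at 61 and at a median of 4865 bp, against a median of 14067 bp over the 1592, and 69 (56.6%) had a composite motif in a shared site, against 40.1% of the 1592. Of the 45 lowered genes, 14 had a site within 5 kb, the median distance was 12872 bp, and 16 (35.6%) had a composite. The number of sites per gene was not matched in these comparisons. Without control library 1 of the *Cbfa2t3* KD the number raised in both was 49, and without control library 2 it was 75.

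**Figure D4:**
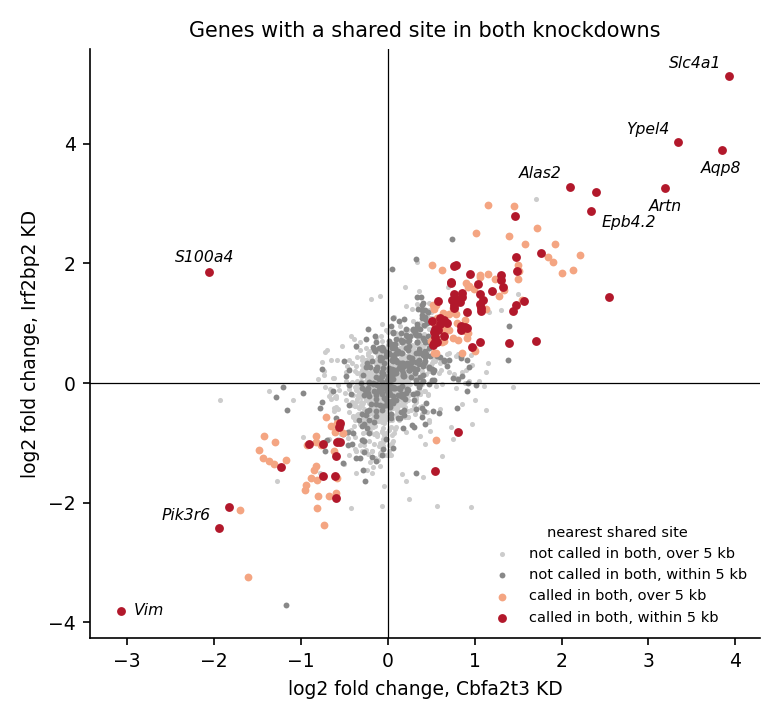
Log2 fold change in *Cbfa2t3* KD (horizontal) and *Irf2bp2* KD (vertical) of genes with a shared site tested in both, coloured by whether the gene was called in both and by the distance of the nearest shared site. The 122 genes raised in both fill the upper right, with *Slc4a1* at 3.93 and 5.13, and *S100a4* stands alone at the upper left (-2.06 and 1.85).

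Genes of haem synthesis with a shared site all rose in both KDs. The 4 of 9 enzymes with a site were *Alas2*, *Alad* (second step), *Cpox* and *Ppox* (late steps), with 6 sites between them. *Alas2* read 69.6 and 68.6 CPM (counts scaled to the library size with TMM factors) in the controls and 258.9, 209.4, 376.7 and 338.4 CPM in *Cbfa2t3* KD. Every KD library lay above both controls, the 2 sh3 libraries highest, a log2 fold change of 2.10 (SE 0.22, edgeR adjusted p = 6.85e-04). In *Irf2bp2* KD *Alas2* went from 69 and 82 to 696.5 and 770.6 CPM, a log2 fold change of 3.28 (SE 0.11, adjusted p = 1.61e-12). *Ppox*, with 4 GATA motifs in a site 154 bp downstream of its TSS, went from 39.7 and 42.5 to between 78 and 92.1 CPM in *Cbfa2t3* KD (log2 1.07, adjusted p = 1.44e-04) and to 97.1 and 92.1 CPM in *Irf2bp2* KD (log2 1.21, adjusted p = 5.77e-09). *Alad* rose by log2 0.76 and 1.96 and *Cpox* by log2 0.86 and 0.50. In *Cbfa2t3* KD the calls of *Alad* (log2 0.74) and *Cpox* (log2 0.81) were lost without control library 1, and that of *Cpox* also without control library 2 (log2 0.91). In *Irf2bp2* KD that of *Cpox* was lost without control library 1 (log2 0.47) or KD library 2 (log2 0.42). Of the 5 other enzymes, without a shared site, 3 rose in *Cbfa2t3* KD and 4 in *Irf2bp2* KD. Over all genes tested 2.99 and 10.1% were raised.

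Of 16 genes of iron and haem transport, 6 had 1 shared site each. *Abcb10*, a mitochondrial transporter, and *Blvrb*, a biliverdin reductase, rose in both KDs (log2 0.90 and 1.67, and 0.65 and 0.78). *Slc25a38*, the mitochondrial glycine carrier, had the most enriched site of the list (59) and went from 54.5 and 50.3 CPM to between 58.4 and 66.7 in *Cbfa2t3* KD (log2 0.24, adjusted p = 0.0792), and rose by log2 0.73 in *Irf2bp2* KD, as did *Abcb6* (0.81). *Steap3* and *Fth1* were not called in either KD. None of the 6 fell in either, and 2 rose in *Cbfa2t3* KD and 4 in *Irf2bp2* KD (background 2.99 and 10.1% raised). Of the 10 genes of the list without a shared site, 2 rose in *Cbfa2t3* KD, and 5 rose and 1 fell in *Irf2bp2* KD.

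The red cell membrane list held the most shared sites: 20 of its 28 genes had 38 between them. In *Cbfa2t3* KD 14 of the 20 rose and none fell (background 2.99% raised and 2.75% lowered). In *Irf2bp2* KD 13 rose and 2 (*Add3* and *Slc2a1*) fell (background 10.1 and 12.5%). Of the list's 8 genes without a shared site, 2 rose in *Cbfa2t3* KD, and 3 of the 7 tested in *Irf2bp2* KD. *Slc4a1* moved most. It read 2.75 and 3.7 CPM in the controls of *Cbfa2t3* KD, 26.1 and 28.8 with sh2 and 70.6 and 72.1 with sh3, so that the hairpins did not overlap with each other or with the controls (log2 3.93, SE 0.53, edgeR adjusted p = 0.00231). In *Irf2bp2* KD it went from 2.85 and 4.29 to 110.8 and 139.6 CPM (log2 5.13, SE 0.15, adjusted p = 1.24e-12).

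*Epb4.2* went from 9.81 and 9.24 CPM to 41.5, 36.5, 57.3 and 57.4 in *Cbfa2t3* KD (log2 2.34, SE 0.21, edgeR adjusted p = 3.12e-04) and from 8 and 10.2 to 63.4 and 70.7 in *Irf2bp2* KD (log2 2.88, adjusted p = 9.18e-12). *Slc22a4* went from 3.45 and 4.14 CPM to 8.82, 7.48, 10.4 and 11.5 (log2 1.33, SE 0.19, adjusted p = 0.00271) and from 4.4 and 5.32 to 14.8 and 14.9 (log2 1.61, adjusted p = 4.10e-08). For both genes all KD libraries lay above all controls. *Gypc*, a membrane sialoglycoprotein with 5 shared sites up to a fold enrichment of 72.3, rose by log2 1.06 and 1.32, the actin-capping *Tmod1* by 1.48 and 2.10, β-spectrin (*Spnb1*, listed as *Sptb*) by 0.86 and 1.43, and the chemokine receptor *Darc* (*Ackr1*) by 1.47 and 2.79. The glucose transporter *Slc2a1* rose in *Cbfa2t3* KD (0.55) and fell in *Irf2bp2* KD (-0.95). Without control library 1, the calls in *Cbfa2t3* KD of these genes of the list were lost: *Slc4a1* (3.73), *Slc22a4* (1.20), *Ackr1* (1.10), *Ank1* (0.48), *Dmtn* (0.46), *Icam4* (0.39) and *Slc2a1* (0.45). *Ank1*, *Dmtn* and *Slc2a1* were also lost without control library 2 (0.56, 0.56 and 0.65). *Slc2a1* was lost as well without Eto2 KD-sh2 1 (0.49) or 2 (0.48), *Dmtn* without Eto2 KD-sh3 1 (0.47) or 2 (0.44) and *Ank1* without Eto2 KD-sh3 2 (0.46).

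In the globin loci *Hbb-b2* and its near-identical copy *Hbb-bt* were listed as a joint entry in the deposited counts. This entry went from 1081 and 1091 CPM to 1794, 1442, 2261 and 2015 in *Cbfa2t3* KD (log2 0.79, SE 0.15, edgeR adjusted p = 0.012). That call was lost without either control library (0.78 and 0.80). In *Irf2bp2* KD the entry went from 841.0 and 1438 to 4236 and 4674 CPM (log2 1.97, SE 0.17, adjusted p = 9.62e-08). The embryonic α-like globin *Hba-x*, in the locus of the sites assigned to *Mpg* and *Nprl3* but itself assigned none, went from 22.9 and 41.6 to 572.3 and 544.8 CPM in *Irf2bp2* KD (log2 4.11, adjusted p = 3.45e-11). In *Cbfa2t3* KD *Hba-x* was called up (log2 1.66, SE 0.41, edgeR adjusted p = 0.0333) but was uneven, with 27.8 and 37.8 CPM in the controls and 163.4, 49.4, 119.3 and 83.8 in the KD. This call was lost without Eto2 WT 1 (1.46), Eto2 WT 2 (1.90) or Eto2 KD-sh3 1 (1.59).

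Of 9 members of the LDB1 complex and its corepressors with 33 shared sites between them, 1 rose and 1, *Cbfa2t3* itself, fell in *Cbfa2t3* KD, and 3 rose and none fell in *Irf2bp2* KD. Of the 12 tested without a shared site 1 rose in *Cbfa2t3* KD, and 2 rose and 3 fell in *Irf2bp2* KD. The background was 2.99% raised and 2.75% lowered in *Cbfa2t3* KD, and 10.1 and 12.5% in *Irf2bp2* KD. *Runx1* rose in both KDs (log2 0.58 and 0.88, the first lost without control library 1 at 0.52). *Gata1*, with 4 shared sites up to a fold enrichment of 61.4, went from 451.0 and 468.5 CPM to between 523.8 and 555.6 in *Cbfa2t3* KD (log2 0.22, edgeR adjusted p = 0.0293, below the fold limit) and rose in *Irf2bp2* KD from 407.5 and 453.2 to 651.7 and 677.0 (log2 0.63, adjusted p = 2.74e-05). *Zfpm1*, the GATA1 cofactor FOG1, was at 0.46 and rose by 0.79. *Lmo2*, *Tcf3*, *Cbfa2t2* and *Ncor1* were not called in either. *Cbfa2t3*, which has 7 shared sites of its own, read 274.5 and 278.5 CPM in the controls and 279.5 and 249.7 in *Irf2bp2* KD (log2 -0.06, SE 0.09, adjusted p = 0.573).

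Of 9 erythroid maturation factors with a shared site, *Klf1*, the erythroid Krüppel-like factor, rose in both KDs (log2 0.51 and 1.04), the first value just past the fold limit and lost without any of 4 libraries (0.46 to 0.52 without Eto2 WT 1, WT 2, KD-sh3 1 or KD-sh3 2). *Foxo3* rose in *Cbfa2t3* KD (0.54), and *Nfe2* (0.68), *E2f2* (1.41) and *Mafk* (0.86) rose in *Irf2bp2* KD, where *Bcl11a*, a repressor of embryonic globin genes, fell (-0.77). Of the 6 maturation factors without a shared site none was called in *Cbfa2t3* KD and 1 rose in *Irf2bp2* KD. Over all genes tested 2.99% rose and 2.75% fell in *Cbfa2t3* KD, and 10.1 and 12.5% in *Irf2bp2* KD. Of 8 progenitor factors with a shared site 7 were tested, and none was called in *Cbfa2t3* KD. *Myb*, whose shared sites lie 35762 and 60567 bp upstream, read 319.3 and 291.1 CPM in the controls and fell to 180.9 and 158.8 in *Irf2bp2* KD (log2 -0.85, SE 0.09, edgeR adjusted p = 1.21e-06), while *Lyl1* rose (0.78). Of the 3 progenitor factors tested without a shared site 1 fell in *Cbfa2t3* KD, and 2 rose and 1 fell in *Irf2bp2* KD.

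Among 12 receptor signalling genes with a shared site, the erythropoietin receptor *Epor* rose in both KDs (log2 0.60 and 0.99) and the stem cell factor receptor *Kit* fell in both (-0.82 and -0.98). *Kit* was near the limit in *Cbfa2t3* KD (2.02 and 2.08 CPM in the controls, 0.876 to 1.52 in the KD, adjusted p = 0.0415), and 5 of the 6 single libraries removed its call there when left out, with values of -0.71 to -0.85. The signalling inhibitors *Spred1* (-1.01), *Spry1* (-1.21) and *Spry4* (-0.99) fell in *Irf2bp2* KD and were at -0.09, 0.02 and -0.05 in *Cbfa2t3* KD. In *Irf2bp2* KD 3 of 11 tested signalling genes with a shared site rose and 4 fell. Of 10 tested without one, 3 rose and 5 fell (background 10.1% raised and 12.5% lowered). In *Cbfa2t3* KD 2 rose and 1 fell, both with and without a shared site (background 2.99 and 2.75%). *Dusp1*, a phosphatase that dampens MAP kinase signalling, rose in *Irf2bp2* KD from 4.02 and 4.94 to 17 and 16.2 CPM (1.89, edgeR adjusted p = 6.20e-09). In *Cbfa2t3* KD it was called up near the limit (0.63, adjusted p = 0.0475), and the call was lost without any single library but Eto2 KD-sh3 2 (0.56 to 0.71). Of 6 genes of cell cycle and survival, the pro-apoptotic *Bcl2l11*, with 4 shared sites up to a fold enrichment of 90.5, rose in both KDs (0.75 and 1.25), as did *Ccnd3* (0.52 and 0.72), whose first call was lost without Eto2 WT 1 (0.51) or Eto2 KD-sh2 2 (0.47). *Cdk6* fell in *Irf2bp2* KD (-1.04). Of the 6 cell cycle and survival genes without a shared site none was called in *Cbfa2t3* KD, and 1 rose and 2 fell in *Irf2bp2* KD.

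The largest changes among all genes with a shared site included genes outside these lists. *Aqp8* read 0.118 and 0.141 CPM in the controls and 1.66, 1.6, 2.44 and 1.87 in *Cbfa2t3* KD (log2 3.84, SE 0.32, edgeR adjusted p = 2.43e-04), and 0.0404 and 0.0803 against 0.856 and 1.01 in *Irf2bp2* KD (log2 3.89, SE 0.50, adjusted p = 7.87e-06). *Ypel4* (3.34 and 4.02) and the neurotrophic ligand *Artn* (3.19 and 3.26, the first lost without control library 1 at 2.70) also rose in both, from levels of at most 0.14 CPM in the controls. *Vim* moved most in the other direction. It read 212.9 and 213.0 CPM in the controls and 26.6, 36.4, 17.9 and 20.4 in *Cbfa2t3* KD (log2 -3.07, SE 0.22, adjusted p = 1.24e-04), and 202.9 and 179.0 against 15.6 and 11.7 in *Irf2bp2* KD (log2 -3.81, SE 0.12, adjusted p = 1.61e-12).

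*Pik3r6* fell in both KDs as well, from 2.79 and 3.49 CPM to 0.45 to 1.29 (log2 -1.94, edgeR adjusted p = 0.00449, lost without control library 2 at -1.76) and from 2.18 and 1.99 to 0.428 and 0.348 (log2 -2.43, adjusted p = 2.49e-06). The fall of *Parm1* in *Cbfa2t3* KD (-1.93) was not matched by a call in *Irf2bp2* KD (-0.28). *S100a4*, a calcium-binding protein whose only shared site was 85 bp from its TSS, was one of the 4 genes called in opposite directions. It went from 1.69 and 1.52 CPM to 0.202, 0.475, 0.55 and 0.312 in *Cbfa2t3* KD (log2 -2.06, adjusted p = 0.00309, lost without control library 1 at -1.98) and from 0.343 and 0.622 to 1.4 and 2.07 in *Irf2bp2* KD (log2 1.85, adjusted p = 1.61e-04), where neither set of KD libraries overlapped its controls.

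During MEL differentiation genes with a shared site were called in both directions. Of 1568 tested, 608 changed (38.8%, all genes 27.2%), 302 up (19.3%, background 12.4%) and 306 down (19.5%, background 14.8%). Genes with a shared site within 5 kb were raised more often (123 of 424, 29.0%) than lowered (70), and genes with the nearest site beyond 50 kb lowered more often (55 of 262) than raised (28). Genes with a composite were raised at 24.7% and lowered at 16.8%, and genes whose shared sites lacked it were raised at 15.6% and lowered at 21.4%. The number of sites per gene was again not matched. The count was 370 of 1584 without non-induced library 1, 347 of 1596 without non-induced library 2 and 367 of 1586 without induced library 2, where 12.5 to 14.7% of all genes were called. At an unadjusted p under 0.05 it was 785, where the share of all genes was 39.3%. The summed megakaryocyte markers rose here too, from 411.5 and 592.2 to 844.5 and 1093 RPKM.

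The genes with a shared site that both KDs raised were mostly raised by differentiation. Of the 122, 116 were tested and 80 were raised (69.0%, all genes tested 12.4%), 4 were lowered, and the median log2 fold change was 1.5. Of the 45 lowered in both KDs, 35 were lowered (77.8%, all genes tested 14.8%) and 1 raised (median -1.90). Genes without a shared site that both KDs moved were not counted in this way, so these shares cannot be tied to the shared sites. *Alas2* went from 23 and 29.2 to 1227 and 1093 CPM (log2 5.48, SE 0.29, edgeR adjusted p = 1.11e-07), *Epb4.2* from 3.19 and 5.63 to 94.3 and 103.6 (log2 4.51, adjusted p = 1.26e-06) and *Slc22a4* from 2.59 and 4.62 to 47.1 and 59.9 (log2 3.92, adjusted p = 1.09e-05). *Slc4a1* went from 0.747 and 0.252 to 51.5 and 115.1 CPM (log2 7.23, adjusted p = 1.06e-06). *Cpox* did not follow, with 401.6 and 740.4 CPM before and 384.3 and 255.5 after induction (log2 -0.84, adjusted p = 0.0549).

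Among the progenitor factors with a shared site *Myb* (-2.0), *Myc* (-1.60), *Ikzf1* (-0.80) and *Etv6* (-0.93) fell, the calls of the last 2 being lost without non-induced library 1 (-0.78 and -0.87), non-induced library 2 (-0.82 and -1.0) or induced library 2 (-0.65 and -0.74). *Kit* fell from 12.8 and 11.8 CPM to 1.24 and 0 (log2 -4.28, edgeR adjusted p = 0.00175), a call lost under DESeq2's Wald test (-4.29). *Vim* fell unevenly, from 631.4 and 466.4 to 127.4 and 4.25 CPM (log2 -3.06, adjusted p = 0.0176), and its call was lost without non-induced library 1 (-2.84) or 2 (-3.25) and under DESeq2's Wald test (-3.05).

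*Kdm1a* KD has 1 control library and therefore no test. A gene was counted here when each KD library lay at least 0.5 log2 units from the control, both on the same side. By this rule 435 of 1615 genes with a shared site were past the fold (26.9%, all genes 22.9%), 236 up (14.6%, background 13.1%) and 199 down (12.3%, background 9.80%). Within 5 kb of a shared site 155 of 433 genes were past the fold (35.8%), 77 up and 78 down, against 24.0% of genes at 5 to 50 kb and 22.7% beyond. The genes with a shared site that both corepressor KDs raised went down more often than up: of 118 measured, 39 were down and 14 up, with a median log2 difference of -0.36. Of the 45 that both lowered, 23 were up and 2 down (median 0.58). Genes without a shared site that both KDs moved were not counted here either. In the red cell membrane list 13 of 20 genes with a shared site were down and 2 up. *Epb4.2* read 12.6 CPM in the control and 1.14 and 1.29 in the KD, *Slc4a1* 3.56 against 0.406 and 0.481, and *Slc22a4* 4.72 against 2.23 and 2.62. *Alas2* stayed near the control (66.2 against 68.6 and 70.6 CPM). *Vim* was higher, with 229.9 CPM in the control and 1009 and 1057 in the KD, as was *Pik3r6*, with 2.9 against 21.5 and 18.1 CPM.

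In *Gfi1b* KD no gene was called by edgeR, 0% of all genes tested as of the 1529 genes with a shared site, in either direction. At an unadjusted p under 0.05, 192 genes with a shared site were past the threshold, 167 of them upward (all genes 7.01%), and the DESeq2 Wald test called 23. The 2 KD libraries differed from each other. In the library labelled Gfi1b KD 1, which held more *Gfi1b* RNA than the controls, *Alas2* was at 922.6 CPM, *Epb4.2* at 66.4 and *Slc22a4* at 34, against 20.4, 2.21 and 1.1 CPM in the library labelled Gfi1b KD 2 and at most 13.1, 0.822 and 2.32 CPM in the controls. The erythroid markers summed to 553.5 and 1295 RPKM at the lowest and highest in these KD libraries. With KD 2 left out 554 genes with a shared site were called (26.7% of all genes), and with KD 1 left out 108 (3.48%). Both fits rest on 1 KD library whose spread is assumed to be that of the controls.

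**Figure D5:**
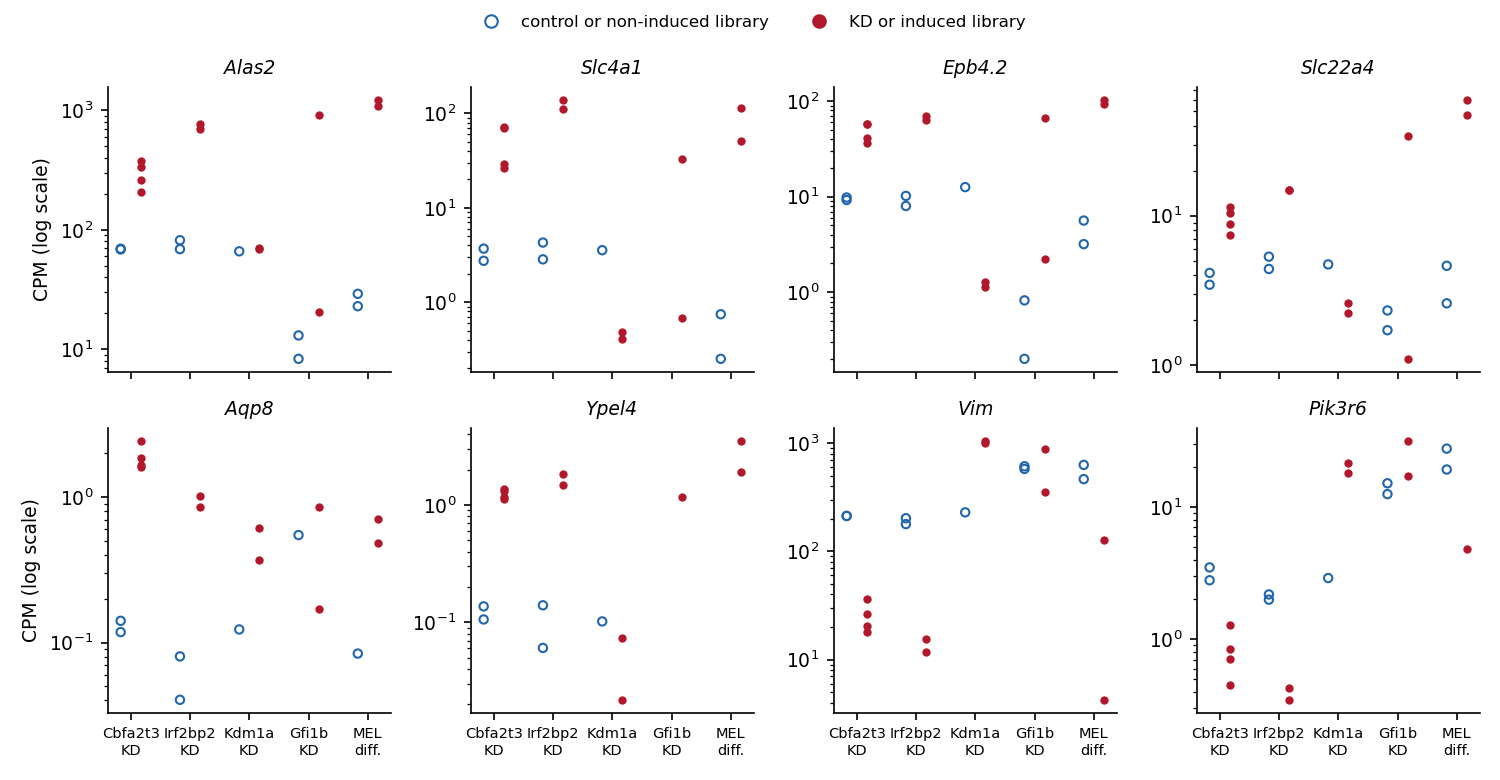
CPM in each library (log scale) of 8 genes with a shared site in the 5 RNA-Seq comparisons, open circles for control or non-induced and filled circles for KD or induced libraries; libraries with 0 counts are not drawn. *Alas2*, *Slc4a1*, *Epb4.2* and *Slc22a4* are above their controls in every *Cbfa2t3* KD and *Irf2bp2* KD library, *Vim* and *Pik3r6* below theirs, and the libraries labelled Gfi1b KD 1 and 2 lie apart at *Alas2* (922.6 and 20.4 CPM).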

How the data were processed

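MEL cells were profiled by ChIP-Seq (1 library per antibody, with 1 IgG library) and RNA-Seq. The authors mapped ChIP reads with Bowtie and RNA-Seq reads with Tophat2 to mm9, and counted RNA-Seq reads per RefSeq gene with rpkmforgenes. The deposited count tables hold raw counts and the authors' RPKM values per library, and columns of the authors' own DESeq2 log2 fold changes and p-values, which were not used. The deposited site list gives 1 fold enrichment (a ratio of ChIP to IgG) and 1 adjusted p-value per site, as the authors' peak calling made them. Another 4 columns of read numbers that could not be tied to 1 library were not used.

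The shared class was taken as the authors listed it, its code read from the class sizes in the study. Counts were fitted per table with edgeR 4.0.16 in R 4.3.3 (TMM, filterByExpr, glmQLFit and glmQLFTest, Benjamini-Hochberg adjustment over all genes tested), treated against control libraries. Calls required an adjusted p of 0.05 and an absolute log2 fold change of 0.5. Log2 CPM in the *Kdm1a* comparison used a prior count of 2. Site features were compared by 2-sided Fisher's exact tests (scipy 1.17.1, Python 3.11.15), with motifs searched on both strands in 201 bp around the centre. Genes were placed by the GENCODE annotation of mm9, and 88.5% or more of the listed symbols of each table were matched to it, directly or through RefSeq synonyms. DESeq2 1.42.0, other filters, windows and distance limits, a replicate block and leaving out each library were tried as alternatives. A floor of 3 counts was at most 0.302 CPM in the *Gfi1b* and MEL differentiation libraries and at most 0.0676 CPM in the others. Intervals cover counting error only. The tests were tried on simulated counts.

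The members, gene lists and named genes were chosen with earlier results of these data known. The genes named are those the study names as bound by both factors, the members of the fixed lists with a shared site, the 5 genes with a shared site that rose and the 5 that fell most in each comparison, and the 10 genes with the most shared sites. Some genes are not reported here.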

Additional observations from a re-analysis of the deposited data

Results flagged for a closer look

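Among 98 genes whose 4 *Cbfa2t3* KD libraries were examined for a library far from the rest (gap over range above Dixon's 95% limit), 4 had one, and chance alone gives up to about 1 in 20. *Nfe2* was at 107.8 CPM in 1 library and 116.4 to 117.9 in the other 3. *Pim1* was at 164.8 CPM against 138.3 to 142.1, and *Dusp5* at 13.3 CPM against 9.98 to 10.5. *Mpzl2* was at 0.613 CPM against 0.404 to 0.433. None of the 4 was called in *Cbfa2t3* KD.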

How the results depend on the processing

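The number of called genes with a shared site kept within 1.5 times the value reported under DESeq2 size factors, DESeq2's Wald test, both filters on low counts and the replicate block, apart from *Gfi1b* KD, where DESeq2 called 23 and the fit without a filter 148 in place of 0. For *Irf2bp2* KD a limit of 20 kb for the nearest gene left 367 of 957 genes called (38.3%), and sites at or above the median fold enrichment 348 of 938 (37.1%). Leaving out single libraries gave 107 to 267 for *Cbfa2t3* KD, 519 to 579 for *Irf2bp2* KD, 347 to 623 for MEL differentiation, 0 to 554 for *Gfi1b* KD and, for genes raised in both KDs, whose alternatives were chosen after seeing the data, 49 to 128. Single hairpins gave 259 (sh2, 7.11% of all genes called) and 339 (sh3, 9.19%). With the replicate number as a block the counts were 224, 555, 0 and 721 for *Cbfa2t3* KD, *Irf2bp2* KD, *Gfi1b* KD and MEL differentiation, and 112 were raised in both KDs. The *Cbfa2t3* KD calls of *Kit* (-0.82), *Dusp1* (0.63) and *Hba-x* (1.52) were among those lost with this block. The libraries share only a number: the deviations of same-numbered libraries correlated across genes by 0.25, 0.12 and 0.25 between the groups of the *Cbfa2t3* table, 0.03 in the *Irf2bp2* table, 0 in the *Gfi1b* table and 0.2 in that of MEL differentiation. The CAGCTG difference from IRF2BP2-only sites was -1.31 points in windows of 200 bp, and the STAT difference turned from 0.0538 to -1.4 points in windows of 50 bp; the cause was not tested. Of 160 values for site features 145 kept their direction and side of the threshold. Of 1651 values for 168 named gene results 1490 did, 161 (64 results) lost a call and none changed sign. Shares near the limits, low counts in the *Gfi1b* and MEL tables and 1 library per antibody limit what these data resolve.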
